A study of Mus musculus with 6 samples.

Results

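Open chromatin at 9 genes of lipolysis and glycerol handling was described in mouse adipocytes from 6 ATAC-seq peak lists. The genes were Pnpla2, Pnpla3, Lipe, Mgll, Abhd5, G0s2, Hilpda, Aqp7 and Gpd1, which are 9 of the 21951 protein-coding genes of GENCODE M21 on mm10. They were chosen by name for their role, not by a measured value, but with earlier results of these data known. ATAC-seq cuts accessible DNA with a transposase, so a peak marks a stretch of open chromatin and says nothing of the amount of RNA or protein. Peaks of the 6 lists that overlapped by at least 1 bp were joined to elements, which gave 194610 elements in all. An element was assigned to a gene if its summit lay between 50 kb before and 50 kb after the gene, and 217 elements met this for the 9 genes.

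The lists came from 2 beige, 2 white and 2 brown libraries, all of wild type C57 mice of 3 to 4 weeks. Beige and white adipocytes were both grown from stromal vascular cells of subcutaneous fat, and brown adipocytes from such cells of brown fat. All were collected at day 7 of differentiation in culture. Per the labels, the induction medium of all groups held 0.5 mM isobutyl methylxanthine and 5 μg/ml insulin. The beige and brown medium held 5 μM dexamethasone, 1 nM T3 and 1 μM rosiglitazone, whereas the white medium held 1 μM dexamethasone and neither T3 nor rosiglitazone. By the labels, beige and white therefore differed in medium, and brown differed from beige in depot. White and brown differed in both, which cannot be told apart. The authors' reporting summary lists the beige and white libraries but not the brown. Whether brown was prepared or sequenced with the others is not stated, so depot and run cannot be told apart. The cells are cultured primary preadipocytes and can hold cells that did not differentiate. Nothing in the labels says whether the 2 libraries of a group came from separate cultures or animals.

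The lists held between 109143 and 127490 peaks, with beige replicate 2 the longest and brown replicate 2 the shortest. Between 122 and 166 of the 217 elements had a peak in a given library, with the highest number in beige replicate 2 and the lowest in white replicate 2. The lists hold no reads, so the number of reads behind a peak is unknown. The authors' reporting summary gives fewer mapped reads, and a lower share mapped, for both beige libraries than for both white ones. It lists no brown libraries, so their depth is unknown. The part of depth in the presence of peaks was not tested. Of 6 adipocyte markers, 5 were called at the promoter in every list and Lep in brown replicate 1 alone. Of 5 macrophage markers, Adgre1 was open at its promoter in all libraries and Csf1r, Mrc1, Ptprc and Spi1 had none in any library. Promoters of 3 of 5 progenitor markers and of 4 of 5 endothelial markers were open in every library, while Ly6a and Cdh5 had none in any. Over all protein-coding genes, 61.7% had a promoter peak in every library. The part of other cell types in the results was not tested. Of 3 genes of the brown depot, Ebf2 and Lhx8 had promoter peaks in all libraries, white included. The third, Zic1, was called at its promoter in both brown libraries and beige replicate 2, and in neither white library. By percentile of fold enrichment within its own list, the Lhx8 peak stood at 48.5 and 55.8 in brown and at 4.42 to 24.9 in beige and white. For Ebf2, brown and white overlapped by that measure.

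Lipolysis breaks the triglyceride of the lipid droplet down in steps, each of which frees a fatty acid, until glycerol is left. Adipose triglyceride lipase, hormone-sensitive lipase and monoacylglycerol lipase act one after the other, and a co-activator and small inhibitory proteins set the pace of the first enzyme. In thermogenic fat the freed fatty acids fuel heat production, and in white fat they are released to the blood. Glycerol leaves the adipocyte through a channel, and glycerol-3-phosphate is made anew from glycolysis to re-esterify fatty acids.

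The reference sequence of the regions on which the comparison turned is given first. Each is read from the RefSeq GRCm38.p6 genome on the plus strand, 201 bp around a summit or 200 bp upstream of the first start site, with matches to the searched motifs in capitals. The first set holds the stretch before the Gpd1 start site at chr15:99717315-99717514 and the regions at Gpd1, Lipe and Mgll that had peaks in beige and brown but in neither white library. These are chr15:99715371-99715571 at Gpd1, chr7:25391905-25392105 at Lipe, whose gene runs on the minus strand, and chr6:88733396-88733596 at Mgll.
Gpd1 upstream: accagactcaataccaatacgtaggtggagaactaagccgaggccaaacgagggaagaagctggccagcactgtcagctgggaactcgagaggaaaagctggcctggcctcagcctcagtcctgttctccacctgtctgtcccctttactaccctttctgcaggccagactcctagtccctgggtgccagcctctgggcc
Gpd1 -2044: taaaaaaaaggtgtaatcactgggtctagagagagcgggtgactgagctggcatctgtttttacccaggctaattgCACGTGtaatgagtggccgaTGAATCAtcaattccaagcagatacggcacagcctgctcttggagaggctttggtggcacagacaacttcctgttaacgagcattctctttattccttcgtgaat
Lipe +6705: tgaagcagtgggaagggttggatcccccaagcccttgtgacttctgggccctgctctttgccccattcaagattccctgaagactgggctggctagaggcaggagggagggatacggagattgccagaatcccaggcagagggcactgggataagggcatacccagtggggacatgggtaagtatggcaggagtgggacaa
Mgll +9084: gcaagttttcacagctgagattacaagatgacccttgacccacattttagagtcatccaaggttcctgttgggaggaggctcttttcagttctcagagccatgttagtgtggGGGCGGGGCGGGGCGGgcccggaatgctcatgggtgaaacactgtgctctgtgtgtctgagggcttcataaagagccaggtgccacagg
The second set holds, of the regions with a peak in every library, those with the widest gap for brown above the others, at chr6:88732156-88732356 in Mgll and at chr7:141452143-141452343 before Pnpla2.
Mgll +7844: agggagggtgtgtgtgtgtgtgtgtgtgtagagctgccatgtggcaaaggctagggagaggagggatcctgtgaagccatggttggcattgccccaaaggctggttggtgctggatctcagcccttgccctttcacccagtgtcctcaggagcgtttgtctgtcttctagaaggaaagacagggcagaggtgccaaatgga
Pnpla2 -2955: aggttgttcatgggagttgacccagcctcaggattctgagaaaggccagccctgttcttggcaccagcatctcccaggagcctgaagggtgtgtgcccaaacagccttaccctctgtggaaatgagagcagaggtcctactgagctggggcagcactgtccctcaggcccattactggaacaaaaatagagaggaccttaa
The third set holds the stretches that carried a full cAMP response element, at chr15:84167637-84167836 before Pnpla3 and at chr9:122379062-122379262 in an intron of Abhd5.
Pnpla3 upstream: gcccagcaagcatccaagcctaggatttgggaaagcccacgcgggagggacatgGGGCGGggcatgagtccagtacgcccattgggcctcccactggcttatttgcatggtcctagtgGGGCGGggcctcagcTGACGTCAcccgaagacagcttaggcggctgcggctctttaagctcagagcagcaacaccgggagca
Abhd5 +27554: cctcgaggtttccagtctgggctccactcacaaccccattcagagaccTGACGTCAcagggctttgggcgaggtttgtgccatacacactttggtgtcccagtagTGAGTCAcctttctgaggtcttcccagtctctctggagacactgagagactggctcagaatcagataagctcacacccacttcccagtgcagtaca
The last set holds the pair of beige-alone regions with the highest -log10 q, at chr6:29240846-29241046 before Hilpda and at chr1:193255628-193255828 beyond G0s2.
Hilpda -31542: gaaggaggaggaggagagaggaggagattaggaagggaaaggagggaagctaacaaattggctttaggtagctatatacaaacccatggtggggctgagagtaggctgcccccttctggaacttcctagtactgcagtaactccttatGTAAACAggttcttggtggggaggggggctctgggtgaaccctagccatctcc
G0s2 +17489: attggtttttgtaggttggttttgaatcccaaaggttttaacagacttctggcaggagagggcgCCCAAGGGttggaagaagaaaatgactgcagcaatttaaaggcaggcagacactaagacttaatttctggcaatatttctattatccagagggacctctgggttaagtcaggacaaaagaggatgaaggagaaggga
Signed numbers in these names are the distance in bp of the strongest summit from the first start site along the gene.

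To compare lists of unequal strength, each peak was given the percentile of its fold enrichment within its own list, in which 100 is the highest. This is called the rank below, and errors on a rank are the SD of the 2 libraries (n = 2). An exact two-sided permutation test of 2 libraries against 2 cannot give a p below 0.333, so no difference between conditions was tested. Values were instead called separate when the libraries of the conditions did not overlap, and each count was set beside the share of all elements or genes that met the same rule.

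Promoters were open throughout the set, with 1 exception. A peak with its summit within 1 kb of a start site was found in all 6 libraries for 8 of the 9 genes, against 61.7% of all protein-coding genes. The exception was Gpd1, glycerol-3-phosphate dehydrogenase 1, which makes glycerol-3-phosphate from a glycolytic intermediate. Its promoter peak was in both beige and both brown libraries and in neither white library, a pattern shown by 43 genes or 0.196% of all protein-coding genes. Over the 8 other genes the median promoter rank was 70.0 ± 2.27 in beige, 79.8 ± 6.13 in white and 81.0 ± 3.96 in brown. Ranked by -log10 q instead, the medians were 92.0, 89.8 and 93.7 in the same order, so white was the lowest and not between the others. By fold, in each library, the median lay below that of the 13547 genes with a promoter peak in all libraries, which ranged from 85.7 to 90.8.

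**Figure D1:**
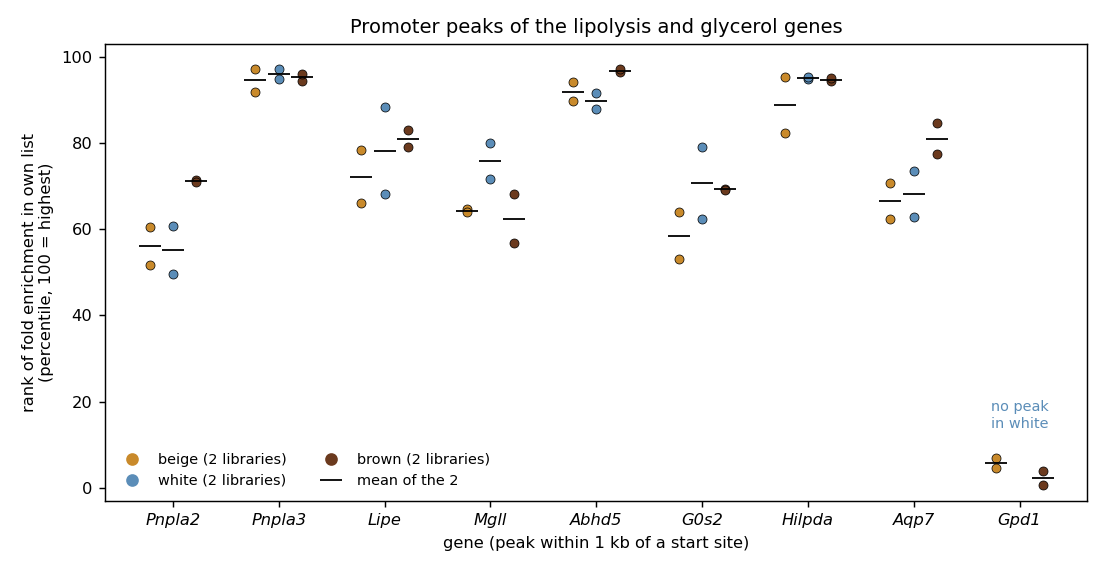
Rank of the promoter peak of each gene in the 6 libraries, as the percentile of its fold enrichment within its own list (y axis, 100 is the highest), with points for libraries and bars for the mean of the 2 libraries of a condition. Pnpla3, Abhd5 and Hilpda sit at 82.4 or above in every library, Gpd1 sits at 6.86 or below and has no white point, and the brown points lie above the others at Pnpla2, Abhd5 and Aqp7.

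The first lipase of the pathway is encoded by Pnpla2 (ENSMUSG00000025509, chr7:141455198-141460743). The rank of its promoter peak was 60.6 and 51.7 in beige, 60.8 and 49.6 in white and 71.4 and 70.9 in brown. Both brown libraries lay above all others by either measure, fold or -log10 q, while beige and white overlapped by fold. The gene shares its neighbourhood with 9 other protein-coding genes, and 17 of its 33 elements lay at promoters of those genes. An element at -2955, between Pnpla2 and its upstream neighbour, had a rank of 0.540 and 0.495 in beige, 0.861 and 0.171 in white and 22.5 and 23.4 in brown. By fold it was among the weakest peaks of the beige and white lists and ranked higher, but still low, in the brown lists. Its -log10 q ranged from 3.63 to 7.97 in beige and white and was 30.1 and 24.2 in brown, and ranked by it the element stood at 12.3 to 38.0 in beige and white and at 73.7 and 74.4 in brown. No motif of those searched was found in its 201 bp.

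Hormone-sensitive lipase, the second enzyme, is encoded by Lipe (ENSMUSG00000003123, chr7:25379527-25398710, minus strand). GENCODE's basic set gives it 5 start sites, and the 2 outermost, 1 bp apart at 25398710, had no peak within 1 kb in any library. The strongest promoter peak lay inside the gene, 644 to 664 bp downstream of the start site at 25396379, in sequence annotated as 5′ UTR. Its rank was 78.5 and 66.0 in beige, 88.3 and 68.2 in white and 79.0 and 83.1 in brown. White overlapped both other conditions. Beige lay just below brown by fold, and the 2 overlapped by -log10 q. A further internal start site, at 25390106, had a peak 154 to 499 bp upstream of it in every library. At that internal start site the rank was 13.9 and 29.6 in beige, 39.5 and 24.6 in white and 57.0 and 53.1 in brown. Brown was the highest there, and the beige and white values overlapped. The intronic element at +6705 lay 1899 bp upstream of the same internal start site and had no peak in white. Its -log10 q was 11.9 and 15.0 in beige and 33.1 and 29.8 in brown, and its rank was 1.75 and 2.39 in beige and 21.1 and 24.6 in brown. The nearest peak of a white list lay 1400 bp away.

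Monoacylglycerol lipase, which takes the last fatty acid off, is encoded by Mgll (ENSMUSG00000033174, chr6:88724412-88828360). It is the longest gene of the set, and 27 of its 38 elements lay in the gene or its promoter. The promoter rank was 64.7 and 63.9 in beige, 79.9 and 71.7 in white and 56.8 and 68.1 in brown. White was the highest at this promoter by fold and by -log10 q. The introns behind it held neighbouring elements that went in opposite directions. At +7844 the rank was 53.2 and 58.4 in beige, 5.99 and 9.97 in white and 78.2 and 74.7 in brown. The lowest beige or brown value exceeded the highest white value by 43.3 percentile points, the widest such gap among the 88 elements of the set with a peak in all libraries. The -log10 q at +7844 was 30.0 and 49.6 in beige, 4.93 and 5.82 in white and 80.4 and 54.3 in brown. At a q value under 0.00001, white replicate 1 lost this peak. At +9084, peaks in both beige and both brown libraries met none in white, with a -log10 q of 11.5 and 9.95 in beige and 8.78 and 6.69 in brown. At +12869 the order turned round, with a rank of 2.14 and 4.26 in beige, 32.4 and 34.5 in white and 0.176 and 1.94 in brown. White was the highest there by 28.2 points. The peak was weak, with a -log10 q of 4.15 and 7.11 in beige, 9.14 and 9.63 in white and 1.81 and 3.78 in brown. It was no longer found in all 6 libraries at a q value under 0.00001 or with lists of equal length. Farther in, the element at +22073 had the highest mean rank of the locus, at 89.6 and 90.9 in beige, 94.5 and 85.7 in white and 94.7 and 96.0 in brown. By fold, brown was the highest there by only 0.14 points, and by -log10 q it overlapped white.

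Pnpla3 (ENSMUSG00000041653, chr15:84167837-84187236) encodes a lipid droplet protein related to the first lipase. Its promoter ranked among the strongest peaks of every list, at 97.2 and 91.9 in beige, 95.0 and 97.1 in white and 94.5 and 96.0 in brown. The conditions overlapped. The sequence upstream of its start site held the palindrome TGACGTCA, the letters of a cAMP response element, together with GC boxes of the letters GGGCGG. TGACGTCA was found in the 200 bp upstream of the first start site of 1.92% of 21851 genes, and GGGCGG in 39.3%. Away from the promoter, an element at +44526 in an intron of Samm50 had a rank of 74.1 and 80.8 in beige, against 36.1 to 48.4 in the 4 other libraries. At -36088, in an intron of Gm33432, the rank was 69.8 and 67.7 in beige, 47.4 and 49.6 in white and 73.5 and 72.9 in brown. White was the lowest at this element, and at -34186 close by it had no peak at all, where the -log10 q was 7.33 and 18.9 in beige and 7.01 and 8.84 in brown.

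Abhd5 (ENSMUSG00000032540, chr9:122351608-122381524) encodes the co-activator of the first lipase. Its promoter rank was 94.2 and 89.8 in beige, 91.6 and 87.8 in white and 96.4 and 97.3 in brown. Brown was the highest by fold, but by -log10 q the brown and beige libraries overlapped and both lay above white. No other protein-coding gene has a start site in its window. The intronic element at +27554, which held TGACGTCA and the AP-1 letters TGANTCA, had a rank of 89.5 and 90.4 in beige, 91.8 and 90.5 in white and 97.2 and 94.5 in brown. Brown was again the highest. TGACGTCA was found in 2 of the 217 elements (0.922%), this one and the Pnpla3 promoter, and in 0.656% of all elements. At +77622, beyond the gene, the order was the opposite, with 53.8 and 39.2 in beige, 64.6 and 51.1 in white and 4.75 and 17.3 in brown.

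Both inhibitors of the first lipase had an open promoter at which no condition was separate from both others. G0s2 (ENSMUSG00000009633, chr1:193272161-193273217, minus strand) had a promoter rank of 53.1 and 64.0 in beige, 62.3 and 79.2 in white and 69.3 and 69.2 in brown. Beige lay below brown there by fold but not by -log10 q, and white overlapped both. Upstream of it, at -434, a weaker element had a rank of 9.56 and 5.51 in beige, 35.4 and 18.5 in white and 6.56 and 0.845 in brown. White was the highest there by fold. Ranked by -log10 q, white at 56.3 and 45.8 overlapped beige at 46.2 and 46.0. The element with the highest mean rank in the G0s2 window was not at G0s2 but at the promoter of Hsd11b1, at +30774, with ranks from 97.8 to 99.0. Hilpda (ENSMUSG00000043421, chr6:29272488-29275446), a hypoxia-induced inhibitor, had a promoter rank of 95.4 and 82.4 in beige, 94.9 and 95.3 in white and 94.4 and 95.0 in brown. The beige libraries differed from each other by more than the 4 others did. The hypoxia element letters ACGTG began 1 bp after the summit of this promoter peak. They were found in 32 of the 217 elements (14.7%) and in 11.7% of all elements.

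Aqp7 (ENSMUSG00000028427, chr4:41033074-41048139, minus strand) encodes the glycerol channel. Its promoter rank was 62.5 and 70.7 in beige, 73.6 and 63.0 in white and 77.4 and 84.6 in brown, with brown the highest by fold and by -log10 q. The intronic element at +6987 had a rank of 27.1 and 29.9 in beige, 55.7 and 57.3 in white and 68.6 and 64.1 in brown. Beige was the lowest there, 25.8 points under the lowest of the others, which was the widest gap of that kind in the set. The only brown-alone element of the set lay at -16009 of Aqp7 and was weak, with a -log10 q of 3.93 and 4.16, where the lists start at 1.3.

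The Gpd1 promoter (gene ENSMUSG00000023019, chr15:99717515-99725005) was the weakest of the set where it was called. Its summit lay from -21 to 14 bp of a start site, with a rank of 4.56 and 6.86 in beige and 0.727 and 3.80 in brown. The -log10 q was 5.67 and 8.28 in beige and 3.68 and 5.80 in brown, and at a q value under 0.00001, which is a -log10 q over 5, brown replicate 1 lost the peak. By -log10 q the peak ranked at 25.7 and 36.2 in beige and 8.92 and 33.8 in brown. A row of elements preceded the gene. At -2426, with a peak in all 6 libraries, the rank was 62.2 and 64.0 in beige, 64.1 and 45.9 in white and 18.1 and 32.8 in brown, so brown was the lowest. At -2044 both white libraries lacked a peak, and the -log10 q was 6.82 and 10.2 in beige and 12.7 and 6.20 in brown. The nearest white summit was 379 bp away, at the preceding element. At -1444 a peak was found in beige replicate 2, white replicate 1 and both brown libraries, with a -log10 q of 5.80, 1.98, 24.0 and 9.62. The palindrome CACGTG, which holds the ACGTG letters on both strands, was found both in the -2044 sequence and at -16 from the promoter summit.

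**Figure D2:**
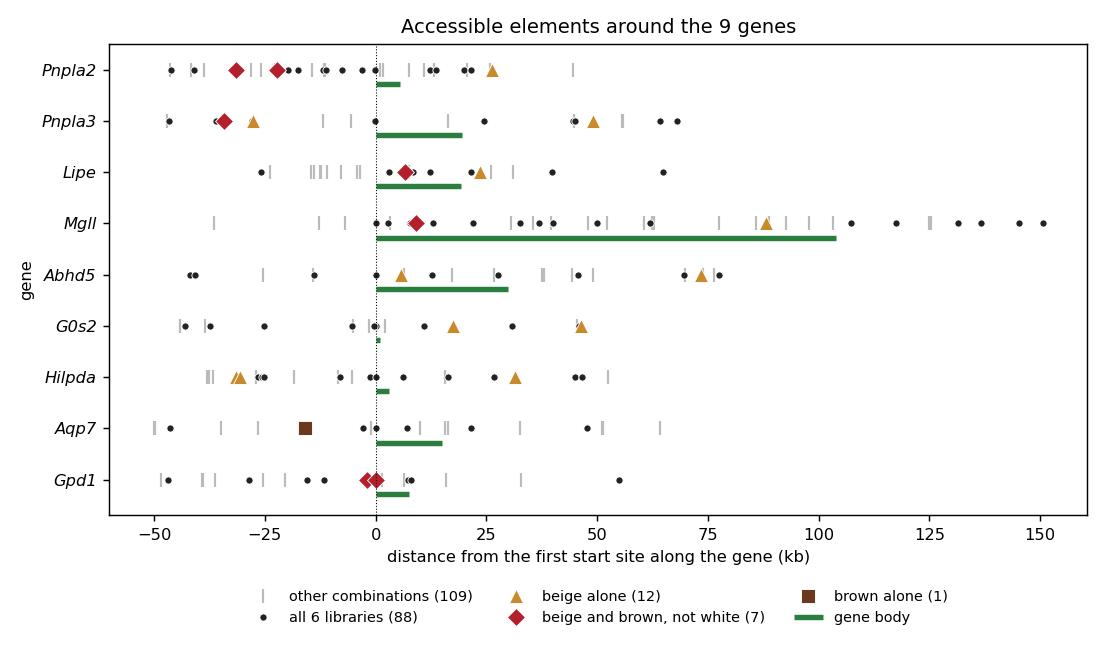
Elements around the 9 genes by the distance of their summit from the first start site along the gene (x axis, kb), with 1 row per gene and the gene body as a bar. Black points mark the 88 elements with a peak in all 6 libraries, diamonds the 7 of beige and brown without white, triangles the 12 of beige alone and the square the 1 of brown alone; grey ticks mark the 109 other combinations, and diamonds lie at the Gpd1 start site and within Lipe and Mgll.

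Of the 217 elements, 55 lay in a gene of the set or at its promoter, and 34 at the promoter of another protein-coding gene. Over the whole set, 88 of the 217 elements (40.6%) had a peak in all 6 libraries, against 30.2% of all elements and 32.4% of the elements within 50 kb of any protein-coding gene. Of these 88, 24 lay in a gene of the set or at its promoter, and 32 within 1 kb of any protein-coding start site. A window of the set held a median of 21 elements, and that of a protein-coding gene 15. Of the other elements, 53 (24.4%) were found in a single library, against 37.2% of all elements, 16 of them in beige replicate 2 and 3 in brown replicate 1. White lacked a peak in 72 elements (33.2%), against 30.9% of all elements, brown in 58 (26.7%), against 35.8%, and beige in 37 (17.1%), against 31.5%. The share without white was thus near that over all elements, and the share without beige was lower. The beige lists together were also the longest.

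Peaks in both beige and both brown libraries with none in white were found at 7 elements (3.23%), against 1.25% of all elements. They lay at Pnpla2 (-31427 and -22278), Pnpla3 (-34186), Lipe (+6705), Mgll (+9084) and Gpd1 (-2044 and the promoter). Of these 7, 3 lay in a gene of the set or at its promoter, and 5 remained of the same class both at a q value under 0.00001 and with the lists cut to equal length. The elements that did not were -31427 of Pnpla2 and the Gpd1 promoter. Without either white library the class held 11 elements. The element at -22278 of Pnpla2 lay in an intron of Slc25a22, with a -log10 q of 5.62 and 8.45 in beige and 9.36 and 18.1 in brown.

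Peaks in both beige libraries alone were found at 12 elements (5.53%), against 1.94% of all elements. They were spread over 7 genes and none lay within 1 kb of a protein-coding start site. The strongest were at -31542 of Hilpda, with a -log10 q of 11.2 and 24.1, at +17489 of G0s2, with 12.7 and 17.7, and close to the first at -30618 of Hilpda. The first and last of these lay between genes, and that of G0s2 in introns shared by Hsd11b1 and Lamb3. In the set's own introns, the beige-alone elements were at +5687 of Abhd5, with a -log10 q of 6.31 and 6.37, and at +88145 of Mgll, with 5.13 and 4.98. Of the 12, 7 remained beige-alone both at a q value under 0.00001 and with lists of equal length. The class held 30 elements without beige replicate 1 and 20 without beige replicate 2, when a single beige library decides.

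The other classes were rare. White alone held 0 of the 217 elements, against 1.23% of all elements, and brown alone held 1 (0.461%), against 0.877%. Beige and white without brown held 0, against 1.16%, and white and brown without beige held 0, against 0.243%.

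**Figure D3:**
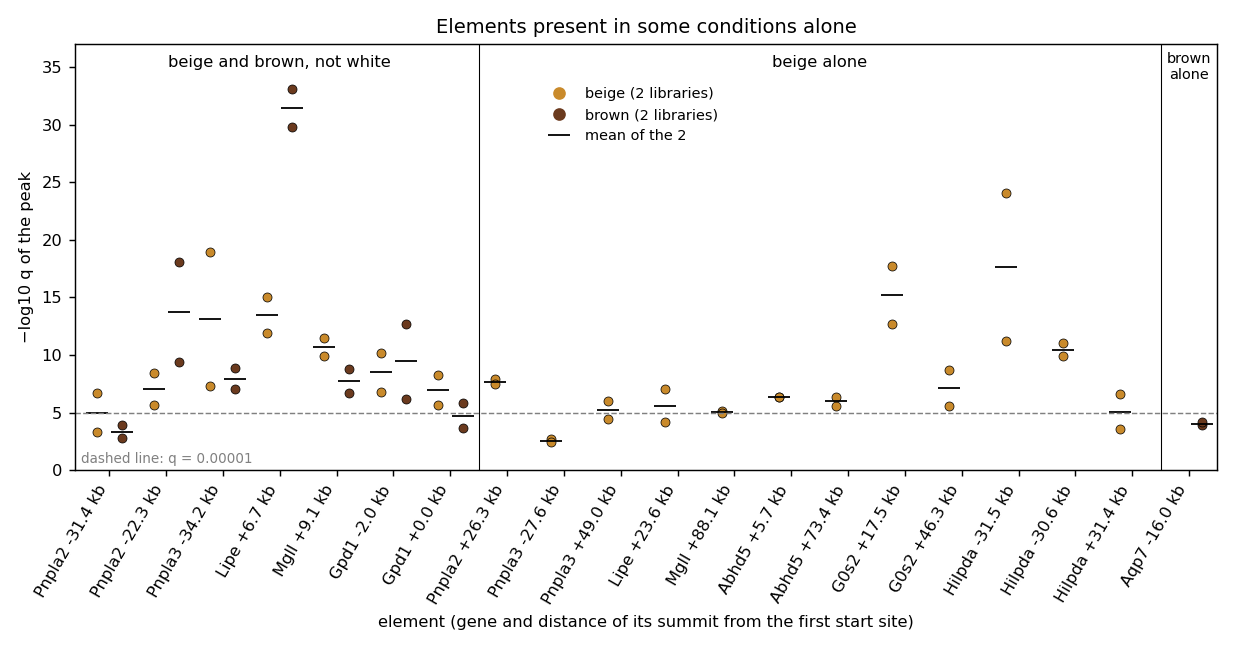
The -log10 q of the peak (y axis) at the 20 elements of the set with peaks in both libraries of some conditions and none in the others, with points for libraries and bars for the mean of 2. Lipe +6705 stands highest in the class of beige and brown, with 33.1 and 29.8 in brown, and several elements lie near or below the dashed line at a q value of 0.00001.

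**Figure D4:**
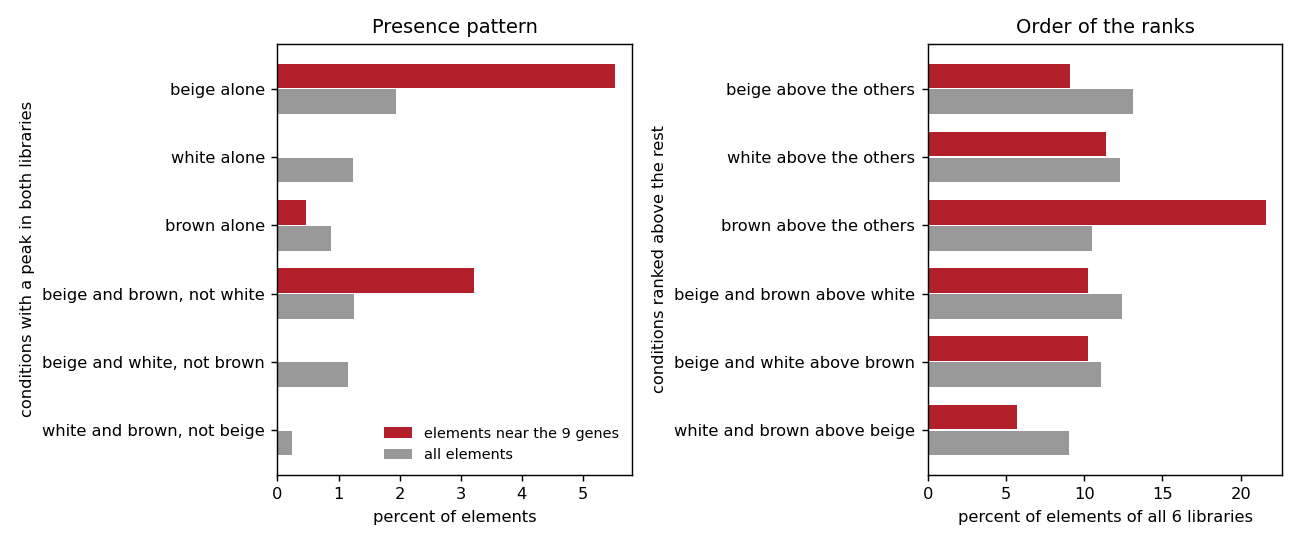
Percent of elements in each presence pattern (left) and percent of the elements of all 6 libraries in each order of ranks (right), for the elements near the 9 genes and for all elements. Beige alone (5.53% against 1.94%), beige and brown without white (3.23% against 1.25%) and brown ranked highest (21.6% against 10.5%) are more frequent near the 9 genes than over all elements.

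Among the 88 elements with a peak in all libraries, brown ranked above all others at 19 (21.6%), against 10.5% of all such elements. These 19 were found at 7 of the 9 genes, with 5 at Mgll, 4 at Pnpla2 and 3 at Abhd5, and none at Hilpda or Gpd1. Without brown replicate 2 the count was 31, and ranked by -log10 q it was 16. Beige ranked above all others at 8 (9.09%), against 13.1%, and white at 10 (11.4%), against 12.3%. Beige and brown both ranked above white at 9 (10.2%), against 12.4%, beige and white above brown at 9, against 11.1%, and white and brown above beige at 5 (5.68%), against 9.05%. By fold, the orders other than that of brown highest were thus no more frequent near the 9 genes than elsewhere. Ranked by -log10 q, their counts were 10, 9, 15, 13 and 4 in the order given. No share over all elements was taken for -log10 q, so no such comparison was made for it. Over the 88 elements, the median absolute difference in rank was 5.05 to 10.8 between libraries of a condition (3 pairs) and 7.45 to 13.6 between libraries of different conditions (12 pairs), so the spread between replicates reached into that between conditions.

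The remaining elements with wide gaps lay at other genes of the windows. Beige ranked highest at +131426 of Mgll, in an intron of Podxl2, at 87.1 and 87.9 against 50.7 to 70.6. It also did at -19844 of Pnpla2, in an intron of Slc25a22, at 36.9 and 50.4 against 9.47 to 26.0. White ranked highest at -11169 of Pnpla2, the start of Pidd1, at 72.0 and 62.1 against 44.7 to 52.1. Brown ranked highest at +21493 of Lipe, in an intron of 4732471J01Rik, at 40.7 and 36.7 against 13.4 to 22.9. Gaps of 4.63 to 6.19 points were found at -46823 of Gpd1, -37441 of G0s2, +16439 of Hilpda and +47731 of Aqp7. At Pnpla2, Abhd5 and Gpd1 the element of highest mean rank was likewise not the gene's own promoter. It lay in an intron of Gatd1 (-46151), between genes (-40659) and at the start of Cers5 (+54945).

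**Figure D5:**
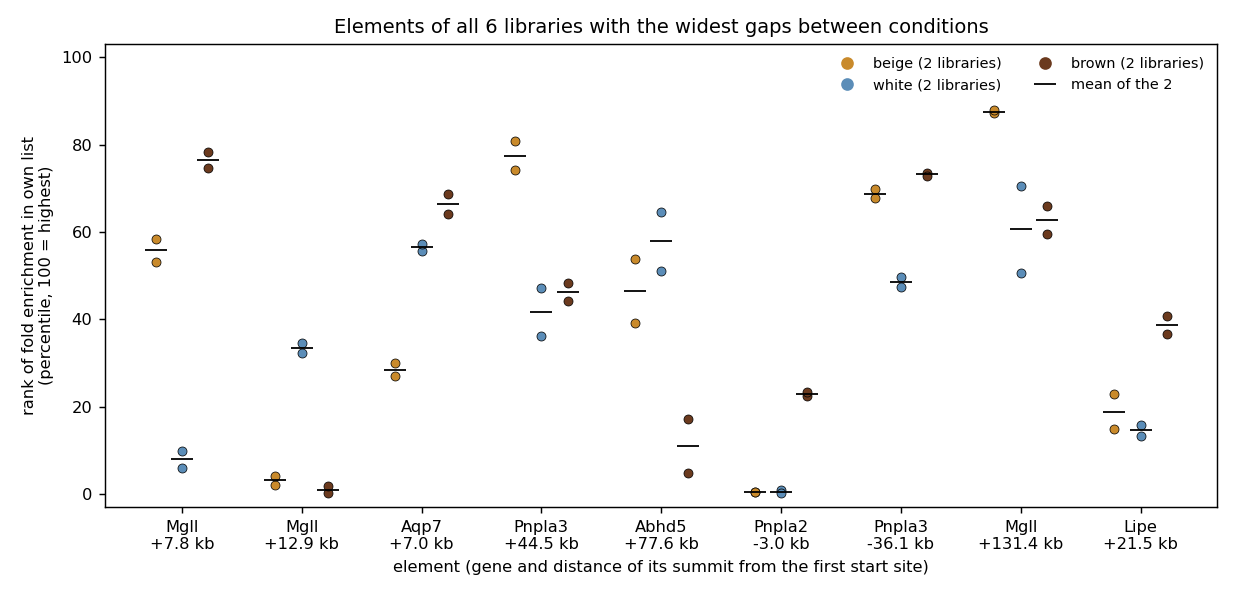
Rank of the fold enrichment within its own list (y axis, percentile, 100 is the highest) at the 9 elements of all 6 libraries with the widest gaps between conditions, with points for libraries and bars for the mean of 2. At Mgll +7844 white lies at 5.99 and 9.97 under all others, at Mgll +12869 white lies highest, and at Pnpla2 -2955 brown lies at 22.5 and 23.4 above values under 1.

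The rest of the pathway was read from lists of genes by role, again by promoter peaks. Of 33 genes, 26 had one in all 6 libraries, where the share over all protein-coding genes was 61.7%. The counts by role that follow are to be read beside that share. Among 11 genes of hormone input to lipolysis 10 did, and Adrb3, the β3-adrenergic receptor, lacked a peak in white replicate 1. Among 6 genes of the droplet coat 5 did, and Plin5 lacked a peak in white replicate 2. Among 11 genes of glycerol use and re-esterification 8 did. Pck1, which feeds glycerol-3-phosphate synthesis in fat, had a peak in 4 libraries, Aqp3 in 5 and Aqp9 in none. Among 5 other lipases 3 did, Ces1f had a peak in beige replicate 2 alone, and Ces1d, a carboxylesterase that hydrolyses triglyceride, had the pattern of Gpd1. The rank of the Ces1d promoter peak was 52.0 and 49.8 in beige and 53.4 and 53.5 in brown, so this peak was of middle strength where it was called.

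Motif letters were searched on both strands in the 201 bp around the summit of every element. The PPAR direct repeat, which is AGGNCA and AGGNCA with 1 base between, was in 3 of the 217 elements (1.38%) and in 0.461% of all elements. These were -6849 of Mgll, with peaks in 5 libraries, and single-library elements of Lipe and Pnpla3, so none belonged to a class of shared or condition-bound elements. The thyroid receptor repeat, with 4 bases between, was in 0 of the 217 and in 0.523% of all elements. The AP-1 letters TGANTCA were in 43 (19.8%), against 21.2%. They were in 28 of the 88 elements of all libraries, in 1 of the 7 of beige and brown and in 0 of the 12 of beige alone. Shares over all elements were not taken by class for any motif. The class counts of AP-1 and of the GC box were therefore not compared with a background. The GC box GGGCGG was in 37 (17.1%), against 10.7%, and 27 of these 37 were among the 88. The C/EBP letters TTGCNNAA were in 20 (9.22%), against 12.6%, and the EBF letters CCCNNGGG, one match of which lies in the G0s2 +17489 sequence above, were in 25 (11.5%), against 9.21%. The FOXO letters GTAAACA, found in the Hilpda -31542 sequence, were in 9 (4.15%), against 2.36%. Those of the glucocorticoid receptor, GNACA and TGTNC with 3 bases between, were in 3 (1.38%), against 0.625%, and those of ETS factors, CCGGAAG, in 5 (2.30%), against 2.35%. TATAAA was in 5 (2.30%), against 6.29%, and the NF1 letters TTGGC and GCCAA with 5 bases between were in 0, against 0.0668%. A match is a description of the letters, and the classes hold few elements.

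The start sites also differed in base composition. In the 501 bp around the first start site, the observed to expected ratio of CpG was 0.983 at Abhd5, 0.974 at Mgll, 0.807 at Hilpda, 0.759 at Pnpla3 and 0.681 at Pnpla2, all above the median of 0.611 over protein-coding genes. It was 0.417 at G0s2, 0.303 at Gpd1, 0.114 at Aqp7 and 0.0680 at Lipe. The lowest, that of Lipe, belonged to the outermost start site, where no library had a peak.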

How the data were processed

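ATAC-seq peak lists of 2 beige, 2 white and 2 brown libraries were used, grouped by their labels. According to the methods and the submitters' processing notes, the authors trimmed adaptors with Trimmomatic, aligned reads to mm10 with BWA and called peaks per library with MACS2, without pooling. The brown libraries are described in the labels alone, and insulin doses are those of the labels, which differ from the methods. The deposited fold enrichment, a ratio, sets the reads at the summit against a local background estimated in that library, and the authors' -log10 q refers to the summit too. Both were therefore compared only as ranks within a list, and a low rank by fold can go with a high -log10 q. All lists started at a -log10 q of 1.3, which is a q value of 0.05. The lists hold no counts, so no interval could be given, and the authors give a depth for the beige and white libraries alone.

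Each interval was counted once, at its summit of highest -log10 q, with ranks as percentiles (ties at their middle). Intervals of the 6 lists were joined at an overlap of 1 bp. An element counted as present in a condition with peaks in both libraries and as absent with none. Start sites were those of protein-coding transcripts in GENCODE M21 basic, and a gene's promoter peak was the peak of highest -log10 q within 1 kb. Motif shares were taken over 194610 elements, and bases 100 bp to each side of the strongest summit were read. Python 3.11.15 with numpy 2.4.6, pandas 2.3.3 and matplotlib 3.10.9 was used, and the joining, ranking and motif search were tested on simulated data. The genes named are the 9 genes of the set and the lists by role. Elements named are promoter peaks, those with a presence pattern, those of highest mean rank (1 is not reported here) and the widest gaps of each rank order; others (Lipe at its internal start site, Gpd1 at -1444, Abhd5 at +27554 and Mgll at -6849) were named after their values were seen. The members, lists and motifs were chosen with earlier results of these data known. The alternatives were other windows, thresholds, lists of equal length, ranks by -log10 q and leaving out each library.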

Additional observations from a re-analysis of the deposited data

How the results depend on the processing

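Of the recomputed values, 129 stayed within the tolerance and 54 moved beyond it. No paired analysis was possible because nothing in the labels pairs a library of a condition with a library of another. Conditions were described by values and counts, without a test. With 25 kb to each side the set had 137 elements, 55 of all libraries and 5 of beige alone, and with 100 kb 355 and 146, with 1 of white alone, 4 of beige and white and 1 of white and brown. At a q value under 0.00001, 1 element was of beige and white, and with lists of equal length 2 were of brown alone. Chaining summits at 100 bp gave 2 of white alone, 2 of brown alone and 1 of beige and white. Leaving out 1 library at a time gave 12 to 30 elements of beige alone, 0 to 8 of white alone, 1 to 12 of brown alone, 7 to 11 of beige and brown, 0 to 6 of beige and white and 0 to 2 of white and brown. It gave 9 to 17 elements with beige highest, 11 to 23 with white, 20 to 31 with brown, 10 to 35 with beige and brown above white, 10 to 20 with beige and white above brown and 6 to 18 with white and brown above beige. Part of this rise comes from the rule, which is met more easily with fewer libraries. The median promoter rank was 66.1 in beige with lists of equal length. By -log10 q it was 92.0 in beige, 89.8 in white and 93.7 in brown, so beige came above white, and 15 elements had beige and brown above white. Among promoter peaks alone it was 53.6, 64.8 and 59.0, so white came above brown. Each of the 6 libraries, when dropped, moved at least 1 of these counts past 1.5 times: without beige replicate 1, beige alone reached 30, without brown replicate 1, brown alone reached 12, and without white replicate 1, beige and brown above white reached 35. The promoter count of 8 was 7 within 250 bp and 9 within 3 kb, where Gpd1 joined through its upstream element.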
